A study of Bos taurus with 10 samples.

Results

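The genes described here encode subunits of AP-1, a family of dimeric transcription factors. The 10 members were the rows of the deposited FPKM table whose symbol was Fos, Fosb, Fosl1, Fosl2, Jun, Junb, Jund, Atf3, Batf3 or Maff, and all 10 were found, each once, among 21130 rows. FPKM counts fragments relative to transcript length and to all mapped fragments of the library, so it allows levels of different genes to be set side by side. The libraries were labelled as muscle of cattle aged 24 months, 7 from MSTN+/- animals, which by that notation carry 1 altered copy of the gene for myostatin, a secreted brake on muscle growth, and 3 from wild-type animals. The question of the design was how the muscle transcripts of the genotypes differ. The labels name neither the kind of edit nor the individual animals, so the p-values below cover only the spread from library to library, part of which may be technical.

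AP-1 proteins carry a basic region that contacts DNA and a leucine zipper that pairs them. Fos proteins cannot pair with themselves and bind DNA together with a Jun protein, whereas Jun proteins can also pair with one another. Fos, Fosb, Jun and Junb are immediate-early genes, transcribed within minutes of growth factors, stretch or stress without new protein synthesis. Fosl1 and Fosl2 follow more slowly, and Jund is present in most resting cells. In skeletal muscle, Fos and Jun transcripts are known to increase briefly with contraction and injury.

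The table itself did not match its labels, and this bears on every value below. The descriptions named Mus musculus in 19415 rows, including 9 of the 10 members (Maff had no description), and 0 gene identifiers were found in a RefSeq gene table of cattle. Transcripts that define skeletal muscle were scarce and uneven. Summed over 15 such markers, FPKM was 26.7 to 57.2 in MSTN+/- libraries, against 28.4, 168.5 and 138 in wild-type replicates 1, 2 and 3. Ckm, muscle creatine kinase, was at 0.14 to 1.02 FPKM in MSTN+/- libraries, against 0.13, 0.36 and 1.07 in wild-type replicates 1, 2 and 3. Acta1, skeletal muscle actin, was at 2.66 to 6.22 FPKM in MSTN+/- libraries, against 24.4, 3.58 and 2.87 in the wild-type libraries. Mylpf, a myosin light chain, was at 6.24 to 26.65 FPKM in MSTN+/- libraries, against 0.75, 155 and 125 in the wild-type libraries. The myosin heavy chains Myh1 and Myh2 were higher in every MSTN+/- library than in any wild-type library. Myh1 was at 1.5 to 5.88 FPKM, against 0.76, 0.11 and 0.08, and Myh2 at 5.73 to 15.29 FPKM, against 0.14, 0.02 and 0.0. Mstn was listed at 0 in 7 of the 10 libraries and reached 0.18 FPKM at most, so it cannot check the genotype labels. Summed over 10 markers of pluripotent cells, FPKM was 1255 to 2073 in MSTN+/- libraries, against 32.1, 2726 and 3155 in the wild-type libraries. This sum mixed directions. Pou5f1 and Klf4 were higher in every MSTN+/- library than in wild-type replicates 2 and 3, and Sox2 overlapped those replicates. All the others were lower than in replicates 2 and 3, such as Nanog at 5.95 to 55.04 FPKM, against 0.91, 234 and 177 in wild-type replicates 1, 2 and 3. Over 11 fibroblast markers the summed FPKM was 3329 to 6506 in MSTN+/- libraries, against 7621, 618 and 526 in the wild-type libraries. Wild-type replicate 1 therefore stood apart from replicates 2 and 3, and the members' tests were repeated without it and against it alone, a fit that takes this single library to vary like the 7. In bulk RNA, fewer cells of a type and less RNA per cell cannot be told apart.

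By median level in the MSTN+/- libraries the members ran in the order Junb, Jund, Fos, Jun, Fosl2, Fosl1, Maff, Fosb, Atf3 and Batf3, from 101 to 0.16 FPKM. Most neighbours in this order overlapped in range across the 7 libraries. The exceptions were Fosl2 above Fosl1 and Atf3 above Batf3. Within libraries the first place was firm, since Junb exceeded Jund in 7 of 7 MSTN+/- libraries and ranked first in each. The second was less so, with Jund above Fos in 5 of the 7. In the wild-type libraries Junb had rank 1 in replicate 1 and rank 3 in replicates 2 and 3, where Fos had rank 1. Fosb had ranks 5 to 9 in the MSTN+/- libraries, and ranks 6, 5 and 2 in wild-type replicates 1, 2 and 3.

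**Figure D1:**
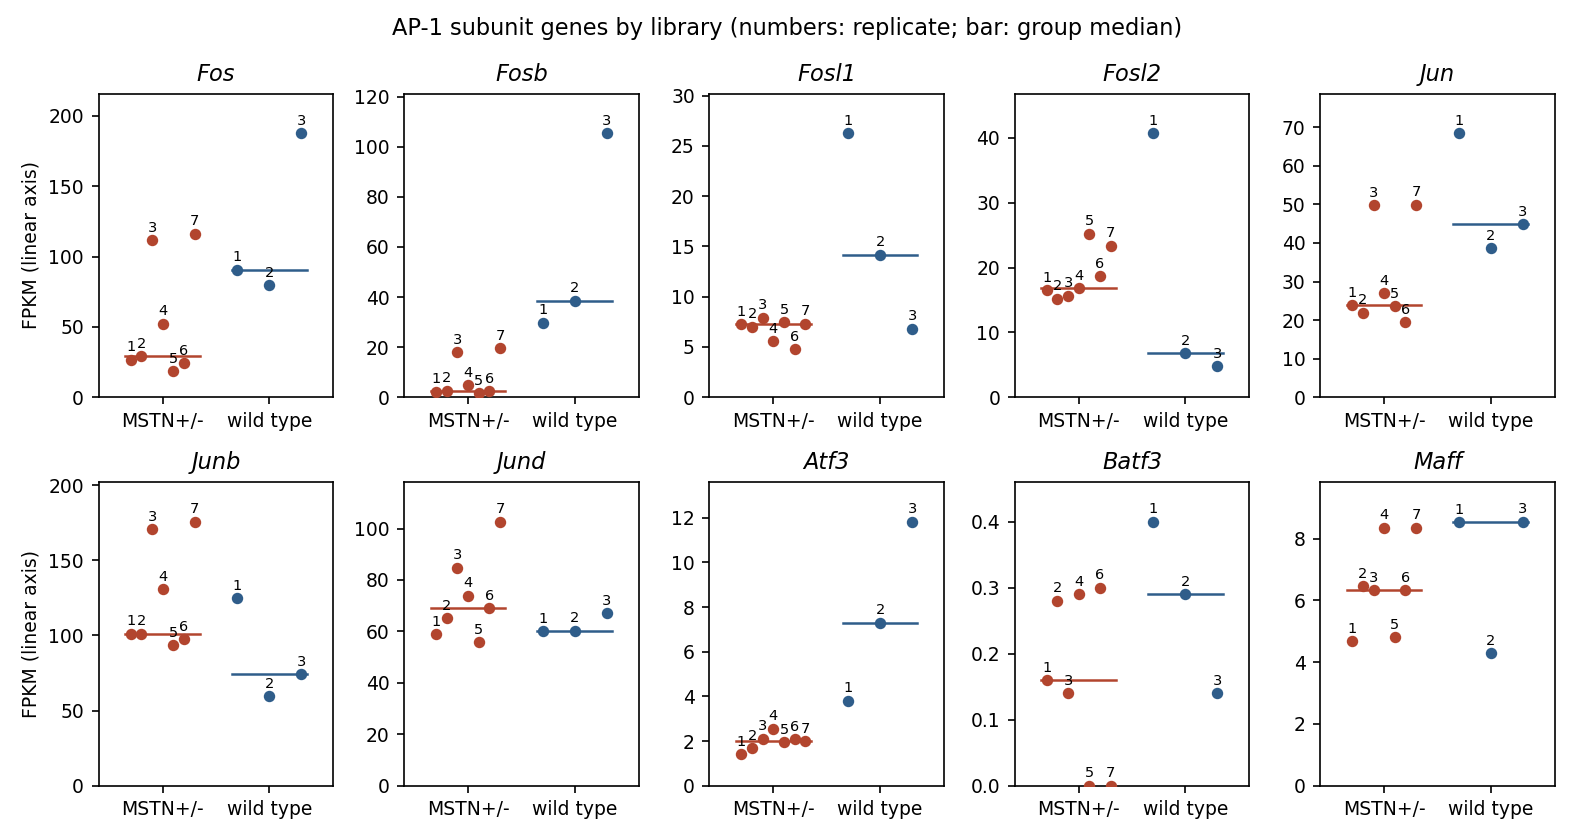
FPKM (linear axes from 0, one panel per gene) of the 10 AP-1 subunit genes in the 7 MSTN+/- libraries (red, left) and the 3 wild-type libraries (blue, right), with replicate numbers and a bar at each group's median. All MSTN+/- points of Fosb and Atf3 lie below all wild-type points, and MSTN+/- replicates 3 and 7 stand above the other MSTN+/- libraries for Fos, Fosb, Jun and Junb.

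Of the 9 members that reached 1 FPKM in at least 3 libraries and were tested, 3 were lower in the MSTN+/- libraries, none was higher and 6 did not pass the threshold. The 3 were Fosb, Fosl1 and Atf3. The test was limma on log2(FPKM + 1) across 14047 genes, with a Benjamini-Hochberg adjusted p under 0.05 as the threshold. Of all genes tested, 12.8% were called lower and 31.8% higher. The median log2 change of the 9 members was -0.75, against 0.17 for all genes tested. At an unadjusted p under 0.05, 5 members were lower and 0 higher. In 2 members every MSTN+/- value lay below every wild-type value, as in 6.86% of genes tested, and in 0 members every value lay above, as in 25.2%. Without wild-type replicate 1, 2 members were lower and 2 higher, where 31.9% and 42.2% of genes were called in those directions. Against that replicate alone, 3 were lower and 0 higher, where the shares of genes were 10.8% and 33.7%.

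Among the Fos subfamily, Fosb had the widest gap between the groups. Its protein is a strong partner of Jun, and a truncated form that lasts longer is known from brain. Fosb was at 2.18, 2.56, 17.95, 4.90, 1.73, 2.32 and 19.45 FPKM in MSTN+/- replicates 1 to 7, against 29.8, 38.6 and 105 in wild-type replicates 1, 2 and 3. The groups did not overlap, but MSTN+/- replicates 3 and 7 came much closer to the wild-type libraries than the other 5 did. The log2 change was -3.11 ± 0.72 (SE, limma adjusted p = 0.00650). It was -3.47 without wild-type replicate 1 (limma adjusted p = 0.00319) and -2.40 against that replicate alone, where it missed the threshold (limma adjusted p = 0.105).

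Fos, the founding member of the family, was at 26.7, 29.3, 112, 52.3, 18.5, 24.3 and 116 FPKM in MSTN+/- replicates 1 to 7, against 90.7, 79.6 and 188 in wild-type replicates 1, 2 and 3. Its groups overlapped, because MSTN+/- replicates 3 and 7 lay above wild-type replicates 1 and 2, while the other 5 lay below all 3. The log2 change of -1.36 ± 0.60 (SE) did not pass the threshold (limma adjusted p = 0.0863). Leaving out MSTN+/- replicate 3 or 7 brought it past the threshold, where it was -1.59 and -1.60 (limma adjusted p = 0.0447 and 0.0420), as did median-of-ratios scaling (-1.58, limma adjusted p = 0.0498).

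Fosl1 and Fosl2 encode Fra-1 and Fra-2, which lack the transactivation domain found at the end of Fos and are known from migrating cells and from bone and skin. Fosl1 was at 4.78 to 7.91 FPKM, with a median of 7.29 FPKM, in MSTN+/- libraries, against 26.3, 14.2 and 6.80 in wild-type replicates 1, 2 and 3. Wild-type replicate 3 lay within the MSTN+/- range. The log2 change was -0.94 ± 0.31 (SE, limma adjusted p = 0.0321). Without wild-type replicate 1 it was -0.50 and missed the threshold (limma adjusted p = 0.0760). The threshold was also missed without wild-type replicate 2 or MSTN+/- replicate 4 or 6, where the log2 change was -0.92, -0.91 and -0.87 (limma adjusted p = 0.0949, 0.0536 and 0.0570). With wild-type replicate 1 as the single comparator the log2 change was -1.83 (limma adjusted p = 2.197e-04).

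Fosl2 turned direction with the wild-type library used. It was at 15.2 to 25.2 FPKM, with a median of 16.8 FPKM, in MSTN+/- libraries, against 40.7, 6.77 and 4.79 in wild-type replicates 1, 2 and 3. Wild-type replicate 1 was thus above all MSTN+/- libraries and wild-type replicates 2 and 3 below them. Over all libraries the log2 change of 0.66 did not pass the threshold (limma adjusted p = 0.296). It was 1.54 without wild-type replicate 1 (limma adjusted p = 5.706e-05) and -1.10 against that replicate alone (limma adjusted p = 0.00716). Fosl1, Fosl2 and the summed fibroblast markers were each highest in wild-type replicate 1. Single markers differed, since Col1a1 was highest there at 3017 FPKM, but Dcn was at 24.3 FPKM, against 169 to 324 in MSTN+/- libraries. Wild-type replicate 2, with a fibroblast sum of 618 FPKM, had Fosl1 at 14.2 FPKM, above every MSTN+/- library. The part of fibroblast transcripts in these differences was not tested.

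None of the Jun subfamily passed the threshold over all libraries. Jun, the classical partner of Fos, was at 19.4 to 49.96 FPKM, with a median of 23.9 FPKM, in MSTN+/- libraries, against 68.5, 38.6 and 44.9 in wild-type replicates 1, 2 and 3. In MSTN+/- replicates 3 and 7 it was at 49.8 and 49.96 FPKM, above wild-type replicates 2 and 3, and in the other 5 it was at 27.05 FPKM or less. Its log2 change was -0.75 (limma adjusted p = 0.0818), and it passed the threshold without MSTN+/- replicate 3 or 7 (-0.88 for each, limma adjusted p of 0.0403 and 0.0395) and with median-of-ratios scaling (-0.96, limma adjusted p = 0.0381).

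Junb, a weaker activator that can restrain Jun, was at 93.3 to 176 FPKM, with a median of 101 FPKM, in MSTN+/- libraries, against 125, 59.8 and 74.1 in wild-type replicates 1, 2 and 3. Every MSTN+/- library exceeded wild-type replicates 2 and 3, whereas wild-type replicate 1 lay inside their range. The log2 change was 0.55 (limma adjusted p = 0.126). It was 0.85 without wild-type replicate 1, past the threshold (limma adjusted p = 0.0120), and -0.05 against that replicate alone (0.917). Jund was the most even member across the wild-type libraries, at 60.2, 60.2 and 67.0 FPKM in replicates 1, 2 and 3, beside 55.9 to 103 FPKM in MSTN+/- libraries. Its log2 change was 0.19 (limma adjusted p = 0.384), and -0.02 with median-of-ratios scaling.

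**Figure D2:**
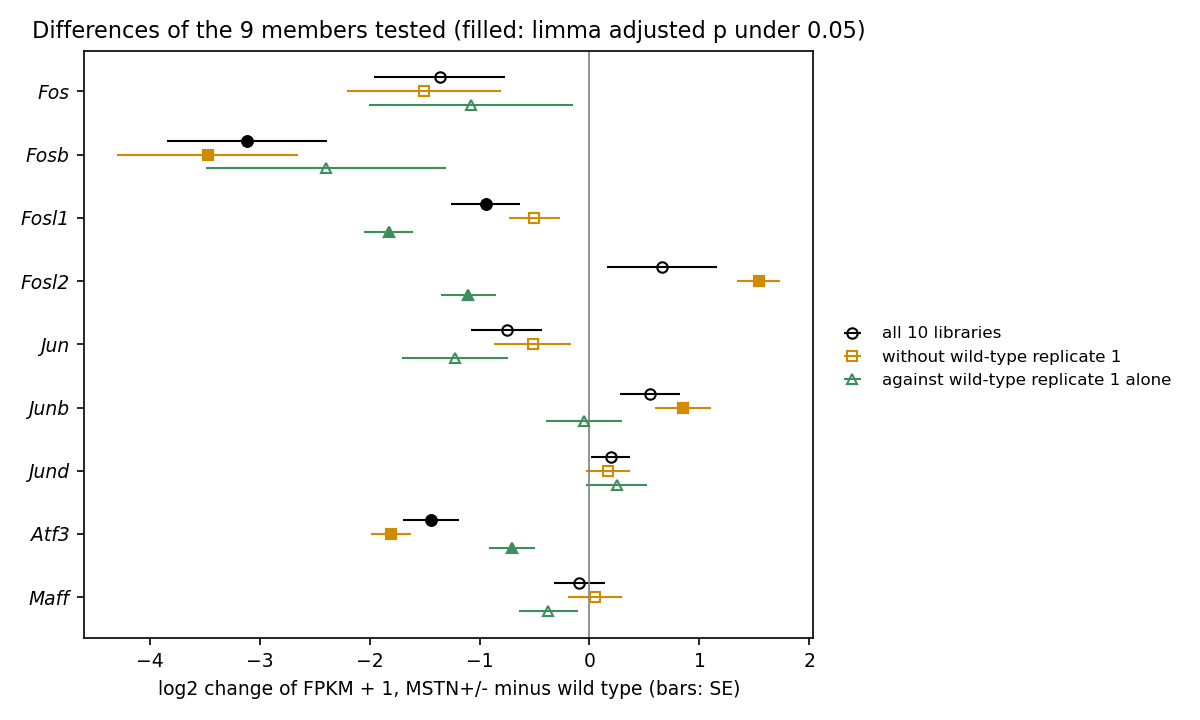
Log2 change of FPKM + 1 (MSTN+/- minus wild type, bars one standard error) of the 9 members tested, over all 10 libraries (circles), without wild-type replicate 1 (squares) and against wild-type replicate 1 alone (triangles); filled symbols passed a limma adjusted p of 0.05. Atf3 is filled in all 3 fits, while Fosl2 lies at 1.54 and at -1.10 in the fits without and against wild-type replicate 1.

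Atf3, Batf3 and Maff belong to neighbouring branches of the leucine zipper proteins. Atf3, a stress-induced repressor and a partner of Jun, was at 1.40, 1.68, 2.11, 2.55, 1.95, 2.08 and 2.0 FPKM in MSTN+/- replicates 1 to 7, against 3.81, 7.30 and 11.8 in wild-type replicates 1, 2 and 3. The groups did not overlap, and the MSTN+/- values stayed within a narrow band that MSTN+/- replicates 3 and 7 shared. The log2 change was -1.44 ± 0.25 (SE, limma adjusted p = 0.00143), -1.81 without wild-type replicate 1 (1.118e-05) and -0.71 against it alone (0.0232). This call was made under all 18 alternatives in which Atf3 was tested, with log2 changes of -2.03 to -0.71. At 1.40 to 11.8 FPKM, Atf3 changes are understated by the added 1, and with 0.1 added the log2 change was -1.78.

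Maff, a small Maf protein with no activation domain of its own, was at 4.68 to 8.35 FPKM in MSTN+/- libraries, against 8.53, 4.28 and 8.55 in wild-type replicates 1, 2 and 3. Its log2 change was -0.09 (limma adjusted p = 0.761), and the sign turned without wild-type replicate 1 or 3. Batf3, needed in mice for a class of dendritic cells, was at 0 to 0.30 FPKM in MSTN+/- libraries, against 0.40, 0.29 and 0.14 in wild-type replicates 1, 2 and 3. These values are so low that they lie on the steps that single fragments give, and Batf3 was not tested.

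Within the 7 MSTN+/- libraries, which carry one label, Fos and Fosb varied more than nearly all other genes with a mean of at least 5 FPKM there. Fos differed 6.30-fold and Fosb 11.2-fold between replicate 7, the highest, and replicate 5, the lowest. The median gene among the 9661 at that level differed 1.36-fold, and the 95th percentile of these genes was 2.49-fold. The standard deviation of log2(FPKM + 1) was 1.05 for Fos and 1.24 for Fosb, ranks 61 and 38 from the largest among the 9661 genes, against a median of 0.145. Leaving out any 1 of the 7 libraries kept the fold ranges at 4.79 to 6.30 for Fos and 8.92 to 11.2 for Fosb. Across the 3 wild-type libraries, Fos differed 2.36-fold and Fosb 3.54-fold.

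The same libraries were high for the Jun subfamily. MSTN+/- replicates 7 and 3 held the highest and the second highest values of Fos, Fosb, Jun, Junb and Jund, among the 8 members at a mean of at least 5 FPKM. The pair was singled out from its Fos and Fosb values, so these are no support for it. Of the other 6 members, 3 (Jun, Junb and Jund) had their highest 2 values in this pair, as did 6.67% of all 9661 genes at that level. The ranges narrowed through the family, at 2.57-fold for Jun, 1.88-fold for Junb and 1.84-fold for Jund. Fosl1, Fosl2, Atf3 and Maff each varied by 1.66-fold to 1.82-fold. Their highest values were in replicate 3 for Fosl1, 5 for Fosl2, 4 for Atf3 and, for Maff, 4 and 7 alike. MSTN+/- replicate 4 had the next highest values of Fos, Fosb, Jun, Junb and Jund. Replicates 3 and 7 were not alike in the fibroblast markers, whose summed FPKM was 4406 and 6506, ranks 5 and 1 of the 7, and the pluripotency markers summed to 1713 and 1916 FPKM, ranks 3 and 2. The skeletal muscle markers summed to 43.1 and 28.9 FPKM in replicates 3 and 7, ranks 4 and 5. The relative depth of replicates 3 and 7 was 1.11 and 1.10 times that of MSTN+/- replicate 1, within the 1 to 1.14 of the 7 libraries. Whether cell makeup or depth had a part in the high values of this pair was not tested.

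**Figure D3:**
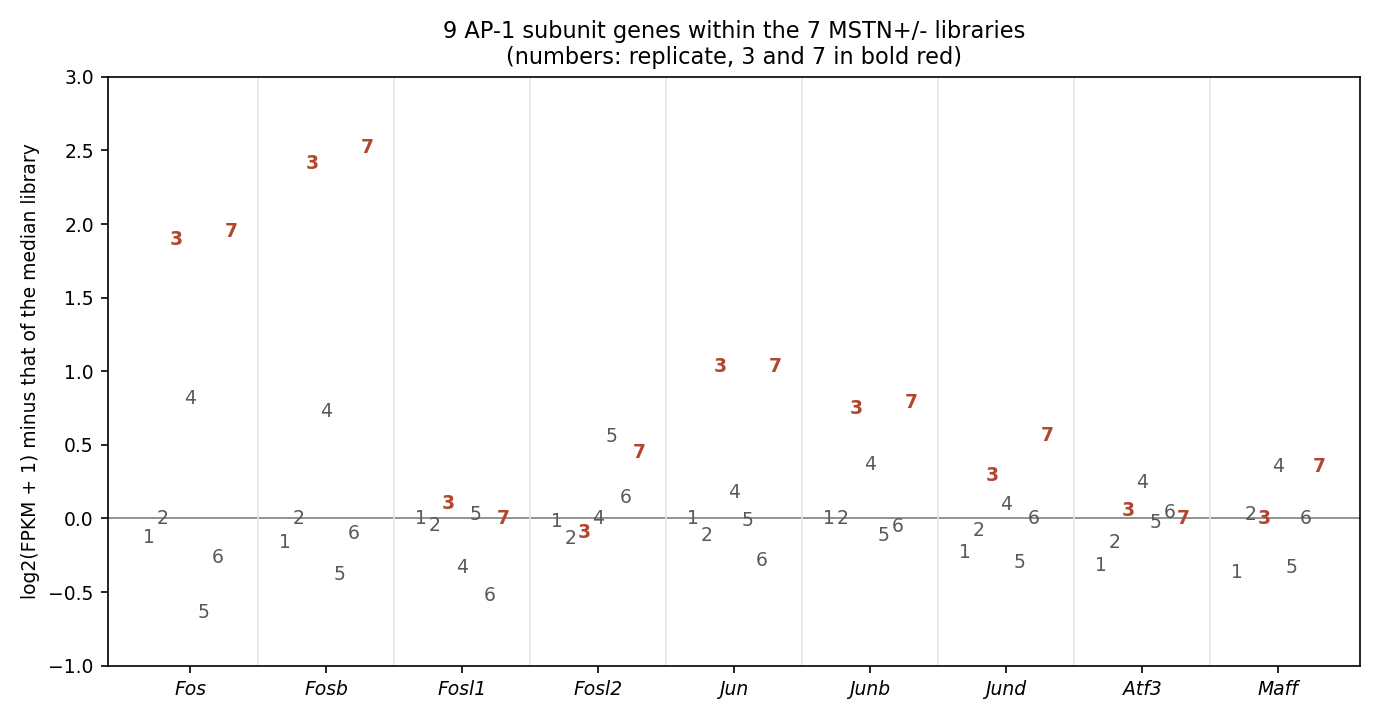
Log2(FPKM + 1) of 9 AP-1 subunit genes in each MSTN+/- library, minus that of the gene's median library; each number is a replicate, with 3 and 7 in bold red. Replicates 3 and 7 top the columns of Fos, Fosb, Jun, Junb and Jund, and lie among the others for Atf3.

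As a description over the 7 MSTN+/- libraries, Fos and Fosb moved together with a Pearson's r of 0.987 and a Spearman's rho of 0.964 on the log2 scale. Without replicates 3 and 7, r was 0.983 over the 5 remaining libraries, and that of Fos and Junb was 0.976 in place of 0.996. Among these 5, replicate 4 stood highest, with Fos at 52.3 FPKM against 18.5 to 29.3 in the rest and Fosb at 4.90 against 1.73 to 2.56. These r may thus lean on replicate 4, and r without it was not computed. The relation of Jun to Fos, Fosb and Junb rested more on replicates 3 and 7, with r of 0.943 between Fos and Jun over 7 libraries and 0.597 over the other 5. Between Fos and Fosl2 r was -0.0905, between Fos and Fosl1 it was 0.309 and between Fos and Atf3 0.387. Maff lay between these and the first group, with r of 0.671 to Fos over 7 libraries and 0.842 over the 5. All points share the library and its depth.

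Among the 951 genes that varied at least 2-fold across the MSTN+/- libraries at a mean of at least 5 FPKM, those most like Fos were Fosb, Zfp36, Igfbp5, Ier2 and Ctgf, with r of 0.955 to 0.987 over 7 libraries. Those most like Fosb were Fos, Jun, Zfp36, Igfbp5 and Ptges, with r of 0.936 to 0.987. Zfp36 encodes a protein that destabilises messenger RNAs, Ier2 an immediate-early nuclear protein and Igfbp5 a binding protein of insulin-like growth factors. Zfp36 was at 97.4 and 105 FPKM in MSTN+/- replicates 3 and 7 with a median of 47.8 over the 7, against 93.7, 52.9 and 71.2 in wild-type replicates 1, 2 and 3. Igfbp5 was at 30.8 to 74.5 FPKM in MSTN+/- libraries, against 176, 1.74 and 0.57 in wild-type replicates 1, 2 and 3, so its likeness to Fos did not extend to the wild-type libraries. Junb varied less than 2-fold and was therefore not eligible.

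The makeup of the Fos and Jun subfamilies differed between the groups. Summed FPKM of Fos, Fosb, Fosl1 and Fosl2 was 52.7, 54.1, 153, 79.6, 52.9, 50.07 and 166 in MSTN+/- replicates 1 to 7, against 188, 139 and 305 in wild-type replicates 1, 2 and 3. Summed FPKM of Jun, Junb and Jund was 173 to 328 in MSTN+/- libraries, against 254, 159 and 186 in the wild-type libraries, so the Jun sums overlapped. The ratio of the Fos sum to the Jun sum was 0.269 to 0.507 in MSTN+/- libraries, and 0.740, 0.877 and 1.64 in wild-type replicates 1, 2 and 3, without overlap. No test is given for these sums or the shares below, since the members were chosen with results known. Of single genes tested, 6.86% had every MSTN+/- value below every wild-type value and 25.2% had every value above. How often ratios or shares of other genes separate the groups was not computed.

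Within the Fos subfamily, Fosb took 3.27% to 11.7% of the summed FPKM in MSTN+/- libraries, against 15.9%, 27.7% and 34.6% in wild-type replicates 1, 2 and 3, which did not overlap. Fosl2 took 10.2% to 47.7% in MSTN+/- libraries, lowest in replicates 3 and 7, and 21.7%, 4.87% and 1.57% in the wild-type libraries. Fos took 34.9% to 72.9% in MSTN+/- libraries, against 48.4%, 57.2% and 61.6% in the wild-type libraries, within the MSTN+/- range. Fosl1 took 4.39% to 14.1% in MSTN+/- libraries, against 14.0%, 10.2% and 2.23% in the wild-type libraries, and overlapped.

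Within the Jun subfamily the makeup was steadier across the MSTN+/- libraries, though it differed between the groups. Jun took 10.4% to 16.3% in MSTN+/- libraries, against 27.0%, 24.3% and 24.1% in wild-type replicates 1, 2 and 3, and Junb took 52.4% to 56.5% in MSTN+/- libraries, against 49.3%, 37.7% and 39.8% in the wild-type libraries. Neither share overlapped between the groups, but both are parts of the same sum and so are not separate results. Jund took 27.8% to 37.1% in MSTN+/- libraries, against 23.7%, 38.0% and 36.0% in the wild-type libraries, and overlapped.

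**Figure D4:**
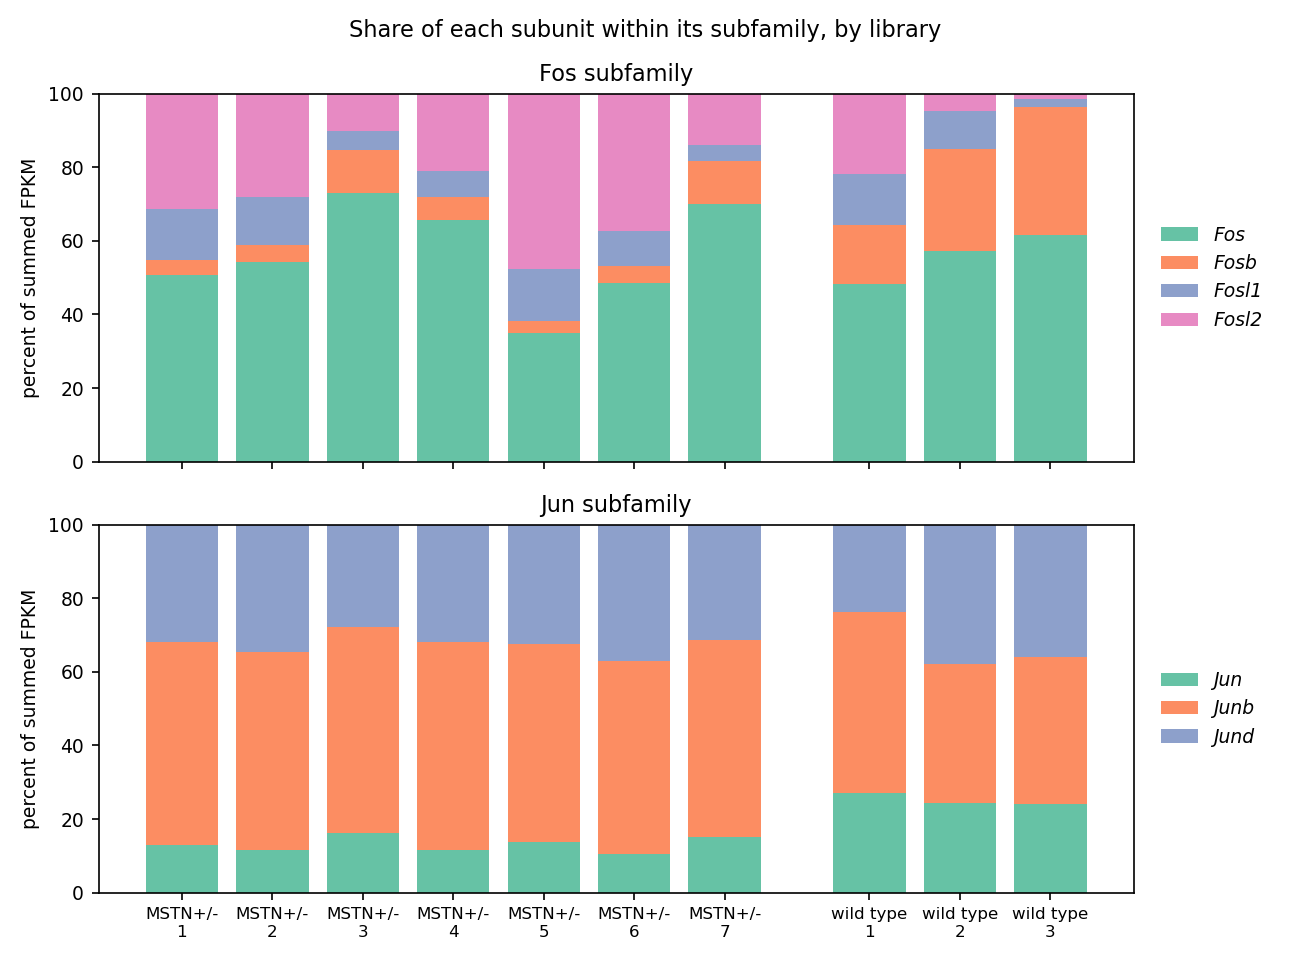
Share of each subunit in the summed FPKM of the Fos subfamily (top) and the Jun subfamily (bottom), in percent, in the 7 MSTN+/- libraries (left) and the 3 wild-type libraries (right). Fosb takes at most 11.7% in MSTN+/- libraries, against 15.9% or more in wild-type libraries, and Jun at most 16.3% in MSTN+/- libraries, against 24.1% or more in wild-type libraries.

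Genes that work around AP-1 were counted in the same fit. In it, 31.8% of all genes tested were called higher and 12.8% lower. Without wild-type replicate 1 these shares were 42.2% and 31.9%. The counts of each list below are to be read beside these shares, and no list was tested as a set. Of 23 other immediate-early genes tested, 4 were higher and 7 lower in MSTN+/- libraries, with a median log2 change of -0.43. Those called lower were 9 without wild-type replicate 1 and 10 against it alone, with 4 higher in both fits. Of the 17 genes named from this and the following lists, 15 were called in the same direction without wild-type replicate 1 and against it alone. Myc, a growth regulator, had 294 ± 42.7 FPKM (SD, n = 7) in MSTN+/- libraries, against 30.1 ± 11.4 (SD, n = 3) in wild type (log2 change 3.29, limma adjusted p = 1.189e-06), and means ± SD of the genes below have the same n. Gadd45b, a stress response gene, had 24.02 ± 2.48 FPKM against 11.3 ± 1.05, and Ppp1r15a, which restores translation after stress, had 19.4 ± 3.20 FPKM against 36.3 ± 1.5, with log2 changes of 1.03 and -0.89. Of 17 genes of this list at a mean of at least 5 FPKM in MSTN+/- libraries, 10 had their highest 2 values in replicates 3 and 7, beside the 6.67% of all genes. They were Ier2, Ier3, Btg2, Zfp36, Zfp36l1, Dusp1, Cyr61, Ctgf, Rhob and Myc. In the lists below, fewer genes at that level had their highest 2 values in this pair. These were 2 of 14 dimer partners, 1 of 7 serum response factors and 0 of 16 kinases. Among phosphatases it was 1 of 8 (Dusp1 again), and among AP-1 targets 2 of 17 (Mt1 and Mt2).

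Dimer partners and relatives divided. Of 18 tested, 3 were higher and 5 lower, but 10 were higher without wild-type replicate 1, 2 against it alone and 1 without replicate 3, and 3 were lower without wild-type replicate 2 or 3. Atf4, the main transcription factor of the integrated stress response, had 109.9 ± 14.0 FPKM in MSTN+/- libraries, against 231 ± 33.4 in wild type, a log2 change of -1.07 (limma adjusted p = 2.141e-04). Bach1, a heme-sensing repressor, had 6.89 ± 0.55 FPKM against 12.3 ± 0.51, and Mafk, a relative of Maff, had 12.7 ± 1.10 FPKM against 7.51 ± 1.76, with log2 changes of -0.75 and 0.71. The change of Mafk was 0.46 against wild-type replicate 1 alone. The median of the list was 0.24.

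The Fos promoter is switched on by serum response factor and its partners, and of 9 genes of these and of the related MEF2 factors 3 were higher and 1 lower, with a median of 0.22. Srf itself had 15.7 ± 1.34 FPKM in MSTN+/- libraries, against 29.1 ± 6.29 in wild type (log2 change -0.83, limma adjusted p = 8.655e-04). Mef2d and Mef2a had log2 changes of 1.02 and 1.23, the second 0.60 against wild-type replicate 1 alone. Without wild-type replicate 1, 6 of the list were higher, and against that replicate alone 3 were lower. Of 20 tested kinases of the MAP kinase cascades, which phosphorylate Fos and Jun proteins, 4 were higher and 4 lower, with a median of -0.06. The lower count was 7, 1 and 0 without wild-type replicates 1, 2 and 3 and 2 without MSTN+/- replicate 3, and the higher count was 2 without wild-type replicate 2 or 3. Against wild-type replicate 1 alone, 4 kinases were higher and 1 lower.

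Mapk3, which encodes ERK1, had 139 ± 11.0 FPKM in MSTN+/- libraries, against 66.2 ± 8.17 in wild type (log2 change 1.06, limma adjusted p = 3.853e-05). Map2k5 and Rps6ka3 had log2 changes of 0.52 and 1.06, and neither passed the threshold against wild-type replicate 1 alone (0.27 and 0.09, limma adjusted p of 0.102 and 0.663). Map2k5 also missed it with median-of-ratios scaling and quantile normalization, at 0.33 and 0.29 on the log2 scale (limma adjusted p = 0.0730 and 0.0767). Rps6ka3 also missed it without wild-type replicate 2 or 3, at 0.84 and 0.78 on the log2 scale (limma adjusted p = 0.0673 and 0.0679).

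Of 10 phosphatases that switch off MAP kinases, 1 was higher and 1 lower, with a median of -0.19. Dusp14 had 71.6 ± 12.4 FPKM in MSTN+/- libraries, against 10.04 ± 6.01 in wild type (log2 change 2.86, limma adjusted p = 5.396e-05). Dusp5, a nuclear ERK phosphatase, had 7.61 ± 1.89 FPKM against 24.8 ± 4.24 (log2 change -1.60, limma adjusted p = 1.925e-04). The counts were 4 higher and 4 lower without wild-type replicate 1, 2 were lower without MSTN+/- replicate 4 or 7, and 3 were lower against wild-type replicate 1 alone.

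Of 21 tested genes known as AP-1 targets, 4 were higher and 4 lower, with a median of -0.29. Those lower include Fosl1, a member already counted above, which is on this list too. Against wild-type replicate 1 alone 4 were higher and 9 lower, and without it 6 were higher and 4 lower. Ccnd1, the cyclin D1 gene, had 229.7 ± 29.4 FPKM in MSTN+/- libraries, against 76.1 ± 10.7 in wild type (log2 change 1.58, limma adjusted p = 1.248e-05). Spp1, the osteopontin gene, and Hbegf, which encodes a growth factor of the EGF family, had log2 changes of -2.98 and -1.80 (limma adjusted p = 8.197e-05 and 0.00117). Spp1 was at 44.9 to 143 FPKM in MSTN+/- libraries, against 572, 737 and 629 in wild-type replicates 1, 2 and 3. In MSTN+/- replicates 3, 4 and 7 it was at 143, 111 and 107 FPKM.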

How the data were processed

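Per the file headers, the authors deposited 1 FPKM value per gene and library, which lies in steps of 0.01. Per the labels' protocols, Trizol was used on tissue frozen in nitrogen. Not given in the sources used here: aligner, counter, annotation, strandedness and build. Without counts, no count model was fitted, and absolute depth is unknown. Relative depth, from the single-fragment steps of low genes and searched from 0.25 to 4, was 1 to 1.21 times that of MSTN+/- replicate 1. FPKM totals were 402716 to 464418.

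Groups came from the genotype label, and replicate numbers only name libraries. No column of library values was left unused. Genes reaching 1 FPKM in at least 3 libraries entered limma 3.58.1 (R 4.3.3), run on log2 of FPKM plus a pseudocount of 1, with a prior variance that follows the mean level and 8 residual degrees of freedom. This scale understates fold changes of low genes. Benjamini-Hochberg adjustment covered all genes tested. The fit was tested on simulated data.

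The members, lists and tests were chosen with earlier results of these data known. Named genes are the 10 members, the 3 called genes of each list with the smallest p, and the 5 genes most correlated with Fos and with Fosb; other genes were named after their values were seen. Marker lists of macrophages, endothelium and mast cells summed to at most 32.3 FPKM in any library, and 15 skeletal muscle markers to 26.7 to 57.2 FPKM in MSTN+/- libraries and 28.4, 168.5 and 138 FPKM in wild type. Alternatives were other scalings, pseudocounts, filters and variance models, and leaving out each library. Figures were drawn with matplotlib 3.10.9.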

Additional observations from a re-analysis of the deposited data

How the results depend on the processing

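Over the 19 alternatives, the members called lower (3 as reported) numbered 5 with median-of-ratios scaling and 2 to 5 when 1 library was left out; the 5 without MSTN+/- replicate 3 or 7 and with that scaling added Fos and Jun. Members called higher (0 as reported) numbered 1 with library weights (Fosl2), and 0 to 2 when 1 library was left out, the 2 being Fosl2 and Junb without wild-type replicate 1. Signs turned for Fosl2 (-1.10) and Junb (-0.052) against wild-type replicate 1 alone, for Jund with median-of-ratios scaling (-0.018), and for Maff without wild-type replicate 1 or 3 (0.049 and 0.051, in a range of -0.38 to 0.051 with 1 library left out). Fosl1 also lost its call with library weights (-0.21, limma adjusted p = 0.632), in a fit of weights that stopped before convergence. With the filter on a mean of 5 FPKM, Atf3 was not tested. Over all genes, calls higher (4468) were 2874 with quantile normalization and 3445 to 5898 with 1 library left out, and calls lower (1800) were 3234 with median-of-ratios scaling, 3851 with quantile normalization, 3368 with library weights and 791 to 4449 with 1 library left out. All genes had a median log2 change of 0.17 in the values as deposited, -0.0053 with median-of-ratios scaling and -0.11 with quantile normalization, and the members -0.75, -0.96 and -0.76. The members' median was nearer 0 in other fits, at -0.33 with library weights and -0.50 without wild-type replicate 1. It was -0.42 with the filter on a mean of 5 FPKM (8 members) and -0.44 with no filter (10 members). Without wild-type replicate 2 it was -0.92. Counts of the other lists that moved by over 1.5 times with the scaling, the filter or the weights were as follows. AP-1 targets called lower (4) were 8 with median-of-ratios or TPM scaling and 7 with quantile normalization or no filter. Kinases called higher (4) were 2 with median-of-ratios or quantile scaling, and those called lower (4) were 9 with quantile normalization and 7 with library weights. Phosphatases called lower (1) were 4, 3 and 2 with median-of-ratios, quantile and library weights, and 3 were higher with the weights. Dimer partners called higher (3) were 1 with median-of-ratios scaling and 8 with library weights, and those called lower (5) were 8 with quantile normalization. Serum response factors called lower (1) were 2 and 3 with median-of-ratios and quantile scaling. The correlations without MSTN+/- replicates 3 and 7 were chosen after seeing the data. The causes of these shifts were not tested. No paired analysis was possible because the labels give no replicate numbers that link the groups. Depth is known only in relative terms, and Batf3 was too low to test.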
